A study of Homo sapiens with 6 samples.

Results

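The peaks described here are the sites where a pull-down of the long noncoding RNA (lncRNA) CRLM1 was called above a pull-down with LacZ probes. The cells were HCT116, an established line from a human colorectal carcinoma. All peaks on chromosomes 1 to 22 and X of the 2 lists called against LacZ were taken, which gave 10671 peaks of the 36753 in the 4 deposited lists. Of these, 10308 were called in replicate 1 and 363 in replicate 2. The lists called against Input, with 9317 peaks in replicate 1 and 16765 in replicate 2, serve as context. The study used chromatin isolation by RNA purification and sequencing (ChIRP-seq) to ask which chromatin sites and genes CRLM1 is associated with. It had 6 libraries in 3 groups with 2 replicates each, all from HCT116 cells in culture, crosslinked with formaldehyde. The CRLM1 group was pulled down with antisense oligos to CRLM1, the LacZ group with probes against the LacZ gene of E. coli, and the Input group was chromatin without pull-down. The labels do not say whether the replicates were separate cultures.

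In ChIRP, biotinylated DNA probes pair with the chosen RNA in crosslinked, sheared chromatin, and the DNA held with it is sequenced. Some lncRNAs act on the gene next to their own, and others associate with many sites across the genome. The probes can also pair with the DNA of the gene that encodes the RNA, and the LacZ probes, which have no target in human cells, measure DNA that comes down without the RNA. Each peak carries a score from the peak caller, on a scale that the sources do not settle, with a floor of 50 in the deposited lists, so scores were compared within a list only. There was 1 list for each replicate, without read counts, so the depth is unknown, no error can be given for a list, and no comparison below has a test. Regions, genes and gene families are described by counts and by values expected from gene length.

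CRLM1 is annotated as LINC01767 (ENSG00000223956.5, GRCh38, chr1:56414918-56417137, plus strand), with 9 transcripts in GENCODE release 44. The 9 CRLM1 probes, written with 59 letters each, lay end to end and covered 531 of the 590 bases (90%) of its transcript with 4 exons. Of them, 6 matched the gene without a break and 3 spanned an exon junction. The first probe, one that spans a junction and the last probe are shown 5′ to 3′ on the strand antisense to CRLM1, with capitals for letters that pair with the later of 2 exons:
CRLM1-1: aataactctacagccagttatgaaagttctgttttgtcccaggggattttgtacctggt
CRLM1-4: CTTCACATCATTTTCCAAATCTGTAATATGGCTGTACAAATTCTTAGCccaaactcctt
CRLM1-9: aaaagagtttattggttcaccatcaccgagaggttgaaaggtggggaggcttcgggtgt

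The highest peak of both lists lay on this gene. In replicate 1 it ran over chr1:56414742-56416221 with a score of 1466.89, which was 2.17 times the score of the second peak in the list and 25.3 times the median. In replicate 2 it ran over chr1:56414867-56416061 with a score of 935.57, which was 3.91 times the second and 16.7 times the median. All 9 probes lay inside both peaks. The replicate 1 peak began 176 bp before the start of the gene and ended 1303 bp after it, and the replicate 2 peak began 51 bp before and ended 1143 bp after. RNA held at its own gene and direct pairing of the probes with that DNA cannot be told apart in this design. The same peaks lay in introns of the lncRNA gene ENSG00000260971 and the protein-coding gene ENSG00000284686, which run across the locus on the minus strand. The next peak in replicate 1 was 19.2 kb away with a score of 53.67, and the next in replicate 2 was 5508 kb away with a score of 53.45.

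**Figure D1:**
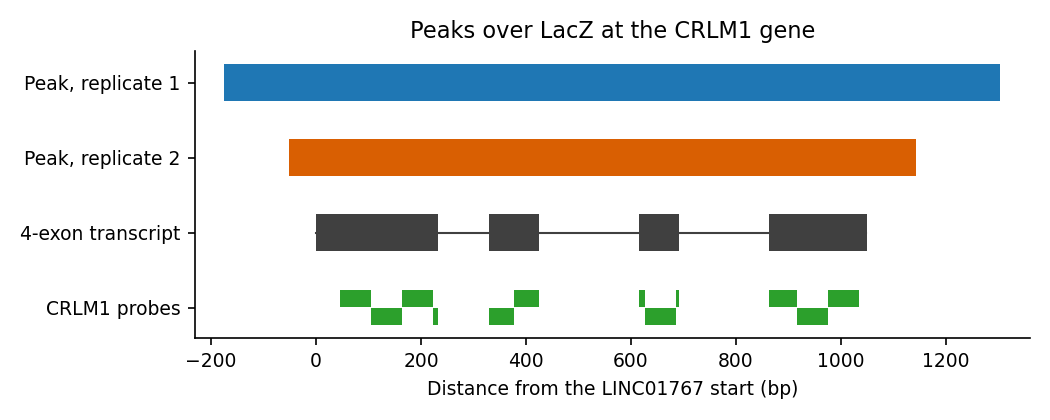
Peaks over LacZ at LINC01767, by distance in bp from the start of the gene. Bars show the peak of replicate 1 (blue), the peak of replicate 2 (orange), the exons of the 4-exon transcript (grey) and the 9 CRLM1 probes (green, in 2 rows, split where a probe spans a junction). All 9 probes lie inside both peaks.

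Elsewhere on these chromosomes, words of 16 letters from the CRLM1 probes occurred at 823 sites, the longest of 20 bp. Of these sites, 1 (0.122%) lay in a replicate 1 peak, in the WASF3 gene, while the replicate 1 peaks covered 0.143% of the genome. None lay in a replicate 2 peak, where 0.0532 sites would lie at the covered share. For the 21 LacZ probes, 1 of 373 sites lay in a replicate 1 peak, at COX6A2, and none in a replicate 2 peak.

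Outside the CRLM1 locus, peaks of both replicates overlapped at 5 places, of 6 in all. Their scores were low next to that of the locus. The replicate 1 peaks covered 0.143% of the genome, and 6 of the 363 replicate 2 peaks overlapped one of them. The number of overlaps that even placement would give was not computed. In ESRRG, the gene of an orphan nuclear receptor, the peaks scored 69.74 and 56.43 in replicates 1 and 2 and shared 64 bp in an intron. The lncRNA gene LINC02160 (inside the larger lncRNA gene ENSG00000250697) had peaks of 87.93 and 78.63 that shared 190 bp. The lncRNA gene ENSG00000287176 had peaks of 66.33 and 69.62 that shared 501 bp. Just upstream of the lncRNA gene ENSG00000284607, peaks of 113.36 and 70 shared 429 bp. An intergenic place on chromosome 11 had peaks of 136.94 and 74.06 that shared 639 bp. The shared letters are shown on the plus strand of GRCh38 for the ESRRG and LINC02160 sites in full, and for the ENSG00000284607 and chromosome 11 sites as the central 300 bp. Capitals mark short tandem repeats (units of 1 to 6 bp, at least 24 bp long) or, in the ENSG00000284607 site, a tRNA B box:
ESRRG chr1:216918293-216918356: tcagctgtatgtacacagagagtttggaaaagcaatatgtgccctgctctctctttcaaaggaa
LINC02160 chr5:33250846-33251035: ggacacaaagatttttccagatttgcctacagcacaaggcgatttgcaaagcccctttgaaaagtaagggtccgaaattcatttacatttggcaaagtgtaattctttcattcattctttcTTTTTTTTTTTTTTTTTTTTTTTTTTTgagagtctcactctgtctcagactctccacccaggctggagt
ENSG00000284607 chr6:26568711-26569010: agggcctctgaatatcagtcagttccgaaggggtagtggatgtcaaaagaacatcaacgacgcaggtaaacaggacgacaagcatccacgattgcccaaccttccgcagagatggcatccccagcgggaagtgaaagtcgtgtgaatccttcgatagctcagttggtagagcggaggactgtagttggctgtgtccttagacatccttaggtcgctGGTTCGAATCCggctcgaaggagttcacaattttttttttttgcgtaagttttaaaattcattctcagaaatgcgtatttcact
intergenic chr11:2205570-2205869: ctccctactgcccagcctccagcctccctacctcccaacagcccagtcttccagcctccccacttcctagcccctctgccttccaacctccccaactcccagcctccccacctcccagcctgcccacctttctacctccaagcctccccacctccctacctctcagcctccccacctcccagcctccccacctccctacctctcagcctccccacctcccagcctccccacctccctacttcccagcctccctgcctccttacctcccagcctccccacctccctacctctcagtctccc

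The 5 places differed in how often their letters recur in the genome. In the ESRRG peaks no word of 31 letters occurred at another place on the main chromosomes. In the replicate 2 peak of ENSG00000287176, 36.7% of such words did, with up to 1406 copies, and in that of LINC02160, 18.1%, with up to 19353 copies. The chromosome 11 site had C as its most frequent letter on the plus strand, with a GC content of 66.6% in the replicate 2 peak. The ENSG00000284607 site held the B box, the element inside tRNA genes that the transcription factor TFIIIC binds.

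The tRNA B box, the 11 letters in capitals at this site with 1 position left free, was then searched on both strands in all peaks, a motif chosen after this site was seen. It was found in 23 replicate 1 peaks (0.223%) and 2 replicate 2 peaks (0.551%), against 0.0166% of 7277260 tiles of 400 bp across the genome. Replicate 1 and 2 peaks had median widths of 395 and 506 bp. Scores of the 23 replicate 1 peaks ran from 50.63 to 113.36, and 6 of them reached 100, beside 2.06% of all replicate 1 peaks. Those 6 lay at ENSG00000284607, at CTC1 (a subunit of the telomere CST complex) with LINC00324, at SACM1L with LIMD1-AS1, in LTA4H (leukotriene A4 hydrolase), at HJV (hemojuvelin) and between genes on chromosome 10. The peaks called against Input also held it, 16 in replicate 1 (0.172%) and 21 in replicate 2 (0.125%). They share the CRLM1 library with the LacZ lists, so they are no separate observation.

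A second sequence recurred among the highest replicate 1 peaks. A run of 6 AACC units (AACCAACCAACCAACCAACCAACC, both strands, overlapping matches taken), also chosen after these peaks were seen, was found in 8 replicate 1 peaks (0.0776%) and no replicate 2 peak, against 0.00247% of tiles. Of the 8, 6 ranked among the 17 highest of the 10308 peaks, with scores of 339.95, 254.51, 222.73, 205.59, 169.33 and 146.63. The third of these lay in SHANK2, a scaffold gene of excitatory synapses, and the other 5 of the 6 lay between genes. The remaining peaks had scores of 73.21 at GSTCD and INTS12 and 56.73 in GRK3. Against Input, the run was found in 8 peaks of replicate 1 and 1 of replicate 2. The highest such peak is shown on the plus strand, with the repeat in capitals:
replicate 1, score 339.95, chr11:69214419-69214643: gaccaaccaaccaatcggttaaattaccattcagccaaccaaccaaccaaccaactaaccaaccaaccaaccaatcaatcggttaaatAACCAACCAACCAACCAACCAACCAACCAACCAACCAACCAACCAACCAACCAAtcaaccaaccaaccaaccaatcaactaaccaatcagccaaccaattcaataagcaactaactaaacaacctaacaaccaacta

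Over the lists as a whole, short tandem repeats made up 0.61% of bases in replicate 1 peaks and 1.02% in replicate 2 peaks, beside 0.298% of the main chromosomes. In replicate 1 that share was 0.546% in peaks scoring under 60, 0.665% from 60 to under 100 and 1.22% at 100 or more. Words of 31 letters that occur at another place were less common in both lists, at 10.9% and 13.6%, than in the genome at 17.1%. Median GC content was 41.3% and 39.9%, beside 40.9% for the genome.

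A gene was counted when at least 1 bp of a peak fell in its span, meaning the gene body plus 5 kb of upstream sequence. Of 62062 annotated genes, 6465 (10.4%) had a replicate 1 peak, 310 (0.5%) a replicate 2 peak and 150 (0.242%) a peak in both. This left 6315 genes with a peak in replicate 1 alone and 160 in replicate 2 alone. The 150 genes were 48.4% of the replicate 2 genes and 2.32% of the replicate 1 genes. They lay at 134 separate loci and rested on 337 replicate 1 peaks and 140 replicate 2 peaks.

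The replicates differed 28.4 times in peak number and 20.9 times in gene number. At equal list size the gene numbers lay close. If 363 peaks were drawn from replicate 1, 307.9 genes would have a peak, by an exact formula, and 310 did in replicate 2. For protein-coding genes the values were 203.3 and 205. An even density per chromosome at the size of the replicate 2 list gives 295.4 genes and 184.2 protein-coding genes. Lists without shared sites would therefore also have near gene numbers, and the closeness does not measure agreement of the replicates. The 363 highest replicate 1 peaks, all with scores of at least 92.26, hit 314 genes, and 16 of these had a replicate 2 peak. Besides the 3 genes at the CRLM1 locus, the 16 included ZBTB20, CDH12, CDH13, UMAD1, STK3, ANKS1B, EGLN3, LINC01470, ENSG00000249209, ENSG00000250697, ENSG00000283549 and ENSG00000284607. From gene length, 6.07 genes would be shared, so the ratio was 2.64. That ratio counts the 3 genes at the CRLM1 locus, which the probes target and which rest on 1 peak in each replicate. UMAD1 and ENSG00000283549 also had the same top scores, so the 16 genes are not separate sites.

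Whether a gene was in a list went with its length. The share of genes with a replicate 1 peak went from 2.61% of genes with a span up to 10 kb, through 23.1% between 50 and 100 kb, to 94.1% above 1000 kb. One even density of peaks along the genome gave 2.29%, 22.03% and 98.7% for the same classes. In replicate 2 the shares were 0.0963%, 1.06% and 20%, beside 0.0827%, 0.879% and 15.5%. All 17 genes above 1000 kb with a replicate 2 peak had a replicate 1 peak too, and 2 of the 32 genes up to 10 kb did. The median span was 265 kb for genes in both replicates, 75.7 kb for replicate 1 alone, 52.6 kb for replicate 2 alone and 8.65 kb for all genes. Per Mb of gene span, replicate 1 had 4.40 peaks in genes up to 10 kb and 3.21 in genes above 1000 kb.

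**Figure D2:**
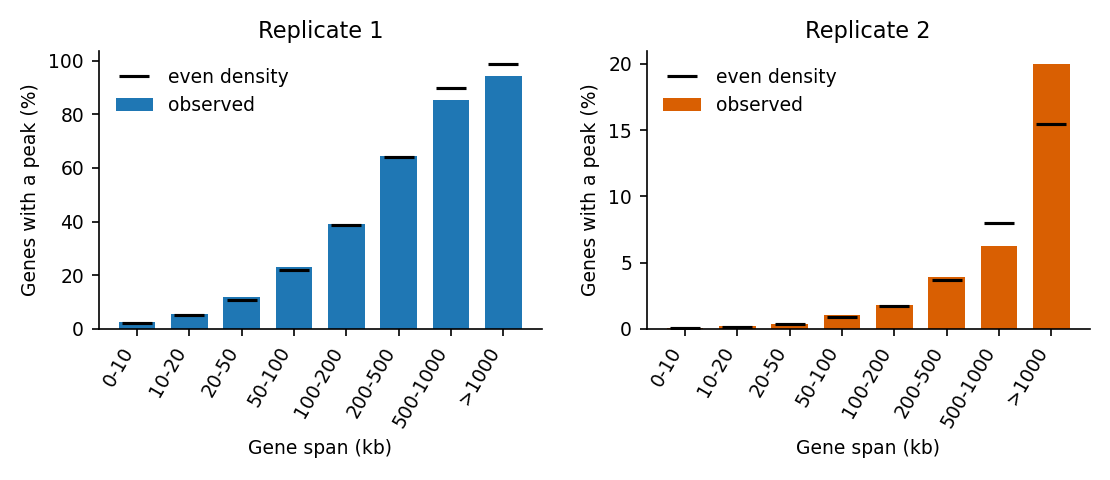
Share of genes with a peak (y axis, %, from 0) by class of gene span (x axis, kb) in replicate 1 (left) and replicate 2 (right, with its own scale). Bars are the observed shares, and black marks are the shares that one even density of peaks along the genome gives. Observed shares follow the marks, from 2.61% to 94.1% in replicate 1 and from 0.0963% to 20% in replicate 2.

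With length taken into account, the 150 genes were somewhat more than expected. Taking for each replicate 2 gene the share of genes of its length class (20 classes) with a replicate 1 peak gave 113.2 genes, a ratio of 1.33. The longest class is wide, and finer measures of length gave less. With one even peak density 125.5 genes were expected (ratio 1.20), and with an even density in each chromosome 129.5 (ratio 1.16). Genes are not replicates, so these ratios have no error.

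Inside the 150 genes, peaks of both replicates overlapped in 8 genes, at 5 places including the CRLM1 locus. No value expected from peak density was computed for these overlaps or for the gaps, so they do not measure agreement of the replicates. The median gap between the nearest peaks of replicates 1 and 2 was 26.1 kb. In 42 genes it was 10 kb or less, and in 21 it was over 100 kb, up to 468.7 kb in CACNA1C, the gene of a voltage-gated calcium channel. The gap was 13.0% of the span at the median. Of 356 pairs of a gene and a replicate 1 peak, 332 had the middle of the peak in an intron, 17 in an exon and 6 upstream. Of 156 pairs in replicate 2, 139 were in an intron, 10 in an exon and 7 upstream. The shares of intron, exon and upstream bases in these 150 spans were not computed, so the counts have no expected value beside them.

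**Figure D3:**
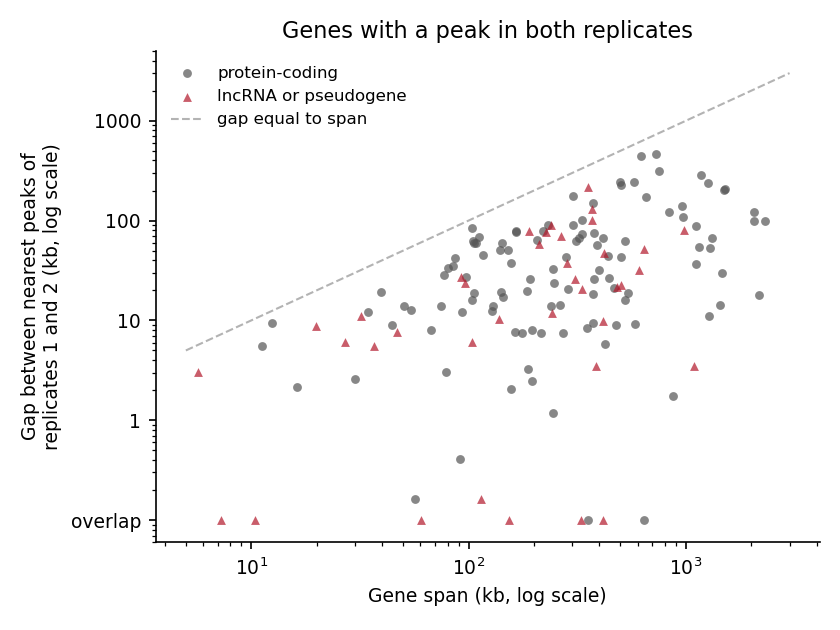
The 150 genes with a peak in both replicates, by gene span (x axis, kb, log scale) and the gap between the nearest peaks of replicates 1 and 2 (y axis, kb, log scale, with overlapping peaks at the bottom). Grey circles are protein-coding genes, red triangles lncRNA genes and 1 pseudogene, and the dashed line marks a gap equal to the span. The median gap is 26.1 kb, and the peaks of 8 genes overlap.

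Some genes had peaks close together without overlap. CPB2, which encodes carboxypeptidase B2, an inhibitor of fibrinolysis, and its antisense neighbour CPB2-AS1 had a replicate 2 peak of 53.52 with the nearer of 2 replicate 1 peaks 0.163 kb away. The top replicate 1 score of both genes, 67.34, belonged to the other peak. MARCHF6, the gene of an endoplasmic reticulum ubiquitin ligase, had peaks 0.408 kb apart. It had 5 replicate 1 peaks in 91.7 kb, where the density of chromosome 5 gives 0.477, with a top score of 60.71, and 1 replicate 2 peak of 72.22. MARCHF6 lies in the first 50 Mb of chromosome 5, where the replicate 1 density was higher, at 8.49 peaks per Mb beside 5.17 over the chromosome. Both genes were picked out after their values were seen.

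Ranked by the lower of the top scores of both replicates, the 12 genes after those of the CRLM1 locus had lower scores from 68 to 78.63. Of these 12, 8 were lncRNA genes, beside 37 of all 150, but overlapping genes among them share peaks and are not separate sites. LINC02160 and ENSG00000250697 shared a lower score of 78.63. LINC01470 scored 141.53 in replicate 1 and 71.81 in replicate 2, with ENSG00000286749 at the same replicate 2 peak. ENSG00000285939 scored 91.26 and 70.83, and ENSG00000284607 113.36 and 70. LINGO2, a leucine-rich repeat membrane protein of neurons, scored 89.48 and 70.31, with ENSG00000287551 at the same peaks. PDE8A, a phosphodiesterase that breaks down cAMP, scored 89.17 and 68.50, with its nearest peaks 7.59 kb apart. RUSC2 scored 69.11 and 68.32, and UMAD1, with ENSG00000283549, 101.52 and 68. Over the 150 genes, the median lower score was 54.29, and 11 genes reached 70.

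The longest genes in both replicates were CNTNAP2 (2310 kb), DLG2 (2178 kb), CSMD1, MACROD2, FHIT, AGBL4, CTNNA2, MAGI2, PRKG1 and TBC1D5 (1293 kb). Several encode proteins of synapses and cell junctions, such as the neurexin-type protein CNTNAP2, the scaffolds DLG2 and MAGI2 and the alpha-catenin CTNNA2. Their replicate 1 peak numbers lay on both sides of those that the density of their chromosome gives. DLG2 had 12 where 8.47 were given, and MACROD2 10 where 8.03 were. FHIT, a tumour suppressor gene at a fragile site, had 3 against 5.09, AGBL4 2 against 5.94 and MAGI2 2 against 5.16. Each of these genes had 1 replicate 2 peak, with scores from 50.19 in MACROD2 to 66.83 in DLG2, apart from the 239.02 of TBC1D5. In TBC1D5, a regulator of endosome traffic, the top replicate 1 score was 61.86, and the nearest peaks lay 53.2 kb apart.

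Among the 150 genes, replicate 1 peaks were most numerous in CDH18, a cadherin of neural tissue, with 19 where the density of chromosome 5 gives 5.74. DLG2 and MACROD2 followed, and then LINGO2 with 8 against 5.34 and DLGAP1, a postsynaptic scaffold, with 8 against 2.87. The CDH18 top scores were 82.21 and 63.82, and its nearest peaks lay 37.0 kb apart. CDH18 lies in the first 50 Mb of chromosome 5, which had 8.49 replicate 1 peaks per Mb, beside 5.17 over the whole chromosome. The density of that region would give more than 5.74 peaks.

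Few short genes were in both lists. Of the 150, 7 had a span under 20 kb and 15 a span under 50 kb. Besides LINC01767 and ENSG00000284607 these included the pseudogene ENSG00000286030 (5.69 kb), CORO1A, PPIB, EEF1A2, ELF3-AS1, LINC01047, PTGS1 and ENSG00000287551. CORO1A, which encodes an actin-binding protein of leukocytes, had a replicate 1 peak of 51.43 in an exon and a replicate 2 peak of 69.40 upstream of its start, 5.59 kb apart. PPIB, the cyclophilin of the endoplasmic reticulum, had peaks of 52.86 and 55.29, 9.38 kb apart. EEF1A2, a translation elongation factor, had peaks of 55.20 and 57.22, 2.14 kb apart. PTGS1, the cyclooxygenase COX-1, had peaks of 68.66 and 53.36, 2.60 kb apart.

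By gene class, 112 of the 150 genes were protein-coding (74.7%), 37 were lncRNA genes and 1 was a pseudogene. Of 19970 protein-coding genes, 4048 (20.3%) had a replicate 1 peak and 205 (1.03%) a replicate 2 peak. Length gave 3791 and 188.9, so the ratios were 1.07 and 1.09. For 18756 lncRNA genes, 1846 and 78 were observed, with ratios of 0.926 and 0.833, and for 14835 pseudogenes 361 and 19, with ratios of 0.752 and 0.909. With an even density per chromosome the replicate 2 ratio for pseudogenes was 1.18, on the other side of 1. Spans of protein-coding genes covered 47.0% of the genome and held the middle of 52.3% and 54.5% of peaks. Among genes in replicate 2, 112 protein-coding genes (54.6%) and 37 lncRNA genes (47.4%) also had a replicate 1 peak, where length gave 85.5 and 26.3. Of all peaks, 69.5% and 72.5% touched a gene span, beside 65.0% of bases in gene spans.

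The share of peaks with the middle in coding sequence or an untranslated region was 4.19% in replicate 1 and 2.2% (8 peaks) in replicate 2, beside 2.97% of bases. Introns took 53.7% and 57.6%, beside 51.1% of bases, and the 5 kb upstream of genes 9.02% and 9.92%, beside 8.52%. Along the bodies of protein-coding genes, replicate 1 peaks were spread evenly, with 20.3% in the first of 5 equal parts and 19.9% in the last. In replicate 2, with 197 such pairs of a gene and a peak, the shares were 24.9% and 17.8%.

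In 29 protein-coding gene families, replicate 1 observed and expected numbers mostly lay close. Family members of similar length were compared by the same 20 length classes. Among 76 DNA damage response genes, 30 had a replicate 1 peak where length gave 18.7, and the density was 5.58 peaks per Mb, beside 3.94 over protein-coding genes. They included RAD51B, RAD54L and RAD51C of homologous recombination, the mismatch repair genes MSH3 and MSH6, and the checkpoint kinase ATR, with top scores from 69.25 in MSH6 to 94.60 in RAD51B. Over the 30 genes the median top score was 57.41, beside a median of 57.965 over all replicate 1 peaks. XRCC5, the Ku80 subunit of the end-joining complex, was in both replicates with scores of 72.87 and 50.65.

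VEGF ligands and receptors had 6 of 10 members with a replicate 1 peak (2.65 expected), led by VEGFA. None had a replicate 2 peak, where length gave 0.141 genes. NRP1 and NRP2, among the 6, were also counted as axon guidance genes. Of 10 genes for EMT transcription factors and vimentin, 5 had a replicate 1 peak (2.83 expected). Top scores were 133.60 in the intermediate filament gene VIM, 79.33 in ZEB1, 65.43 in TWIST2, 62.12 in TCF4 and 52.83 in TWIST1. The ribosomal protein genes, which are short, had 10 of 84 (5.01 expected), and 1 in replicate 2, RPL39L. SOX and FOX genes had 14 of 64 (8.62 expected). The keratins and keratin-associated proteins had none of 149 (5.64 expected) in replicate 1 and 1, KRT73, in replicate 2. BCL2 family and caspase genes had 2 of 36 (4.92 expected). The EMT set, the SOX and FOX genes, and the BCL2 and caspase genes had none in replicate 2. Length gave 0.164, 0.432 and 0.209 genes there. These families are small, and the counts have no error.

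Cadherins and protocadherins show how the measure matters. By gene number, 21 of 109 had a replicate 1 peak where 36.7 were expected, but clustered protocadherin genes overlap each other and share 1 stretch of DNA. By density, the family had 4.08 peaks per Mb of joint span, but CDH18 alone held 19 of its 58 peaks, and CDH12, CDH9 and CDH10, also in the first 50 Mb of chromosome 5, held 7, 4 and 2. It had 4 members with a replicate 2 peak, where length gave 2.08 and the density of their chromosomes 2.79. All 4 were in both replicates, where length gave 2.48 of the 4, with CDH9, CDH12 and CDH18 on chromosome 5 and CDH13 on chromosome 16. Their replicate 2 scores were 56.38, 51.05, 63.82 and 53.52. CDH9, CDH12 and CDH18 encode classical cadherins of neural tissue, and CDH13 a cadherin anchored to the membrane by a lipid.

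Other family members in both replicates had spans of 112 to 2310 kb and 1 replicate 2 peak each. They included the calcium channel genes CACNA1C and CACNB4, the adhesion genes CNTNAP2 and NCAM1, the phosphodiesterases PDE1A and PDE8A, the protease ADAMTS17, the mitochondrial carrier SLC25A21, the zinc finger gene ZNF644 and the nuclear receptor ESRRG. Their replicate 2 scores ran from 50.37 in ZNF644 to 74.10 in NCAM1, whose peak lay 4.58 kb upstream of its start. Of the 29 families, 15 had no replicate 2 peak. Among them were integrins, collagens and laminins, GALNT glycosyltransferases and Wnt genes, for which length gave 0.337, 1.30, 0.461 and 0.705 genes.

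**Figure D4:**
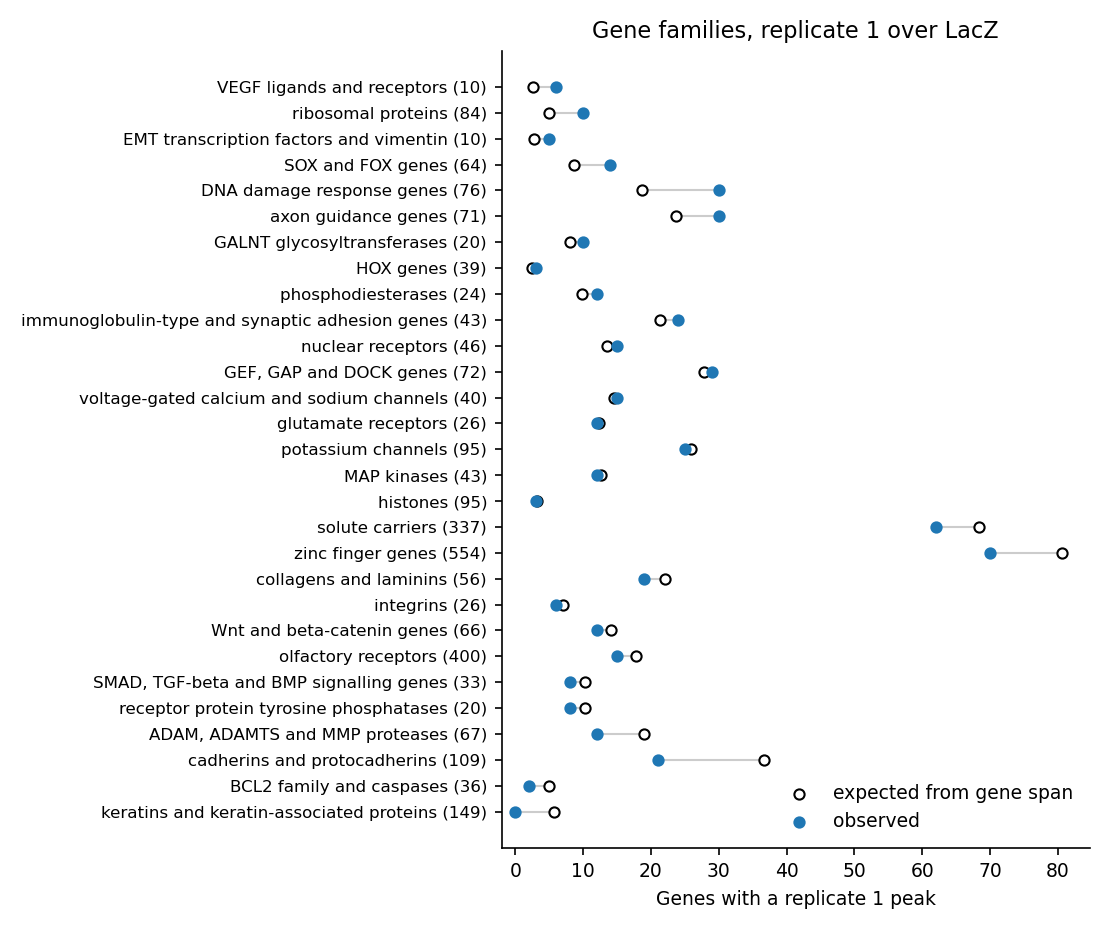
Number of genes with a replicate 1 peak (x axis) in 29 gene families (y axis, with the number of genes in brackets), sorted by observed over expected. Blue dots are observed numbers and open circles the numbers that 20 length classes of all annotated genes give. DNA damage response genes are at 30 against 18.7, and cadherins and protocadherins at 21 against 36.7.

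Among protein-coding genes in replicate 1 alone, VEGFA, the main angiogenic growth factor, had the second-highest peak of the list, with a score of 675.47, a width of 2366 bp and its middle in an exon. The nearest replicate 2 peak was 7909 kb away. SHANK2 followed with 222.73, and then ARHGDIA, a cytosolic regulator of small GTPases, with 152.98, and HMCN2, PAFAH1B1 and CYP4F3, which each scored 148.41. GPX4, the glutathione peroxidase that protects lipids, had 2 peaks with a top score of 142.43, and CDH4 2 with 141.44. The tops of VEGFA, ARHGDIA and GPX4 lay in exons and the other 5 in introns. Those of ARHGDIA and GPX4 had no peak against Input with the same start and end, and the other 6 had. Overlap with Input peaks of other bounds was not checked. The protein-coding genes with the most replicate 1 peaks and none in replicate 2 were PTPRD (13), CTNND2 (12), CTNNA3 (10) and GPC5 (9). NFIA had 7, as did others such as CNTN4, NLGN1, GRIK2, PDE4D, ADAMTSL1 and RARB. For PTPRD, CTNND2, CTNNA3, GPC5 and NFIA the density of their chromosomes gives 9.61, 4.85, 6.88, 5.2 and 2.39. CTNND2 lies in the first 50 Mb of chromosome 5, where the replicate 1 density was higher, at 8.49 peaks per Mb beside 5.17 over the chromosome.

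The highest scores of protein-coding genes in replicate 2 alone belonged to genes of varied function. ZNF682, a zinc finger gene, had 86.06, SRP9, part of the signal recognition particle, 81.87, and FARSB, a subunit of phenylalanyl-tRNA synthetase, 81.63. RPL39L followed with 80.80, ZNF45 with 77.08, UGT3A2 with 74.67, the clathrin adaptor gene AP2B1 with 71.37 and CIB4 with 69.99. All 8 peaks lay in introns, and all 8 were also called against Input. In the SRP9 peak, 22.9% of words of 31 letters occurred at another place, in that of ZNF682 49.0% and in that of RPL39L none. IMMP2L, a gene of 905 kb, was the 1 protein-coding gene with 2 replicate 2 peaks and none in replicate 1. The other genes of this kind had 1 each, such as MYOM3, FABP3, GRIK3 and GJA5.

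Of the genes that the study names, 8 besides LINC01767 were looked up, and none of these 8 had a replicate 2 peak. Other genes it names were not looked up for this purpose. The study names SMAD2, MAPK9, GSK3B, GALNT5, GALNT13 and GALNT18 as bound by CRLM1, from peaks called over Input that did not overlap LacZ peaks. It names PLPP3 for correlated expression and HNRNPK for its protein, a partner of CRLM1. The lists used here have another control, so presence or absence of a peak is not a like measurement. PLPP3, a lipid phosphatase gene close to CRLM1, had 1 replicate 1 peak with a score of 62.07. GALNT18 and GALNT13, which encode enzymes that start mucin-type O-glycans, had 2 replicate 1 peaks each, with top scores of 115.93 and 59.80. At an even density, genes of their spans have a peak in 42.4%, 71.7% and 87.5% of cases. SMAD2, MAPK9, GSK3B, GALNT5 and HNRNPK had no peak in either list, and for them those shares were 36.4%, 20.4%, 62.8%, 20.9% and 6.16% in replicate 1 and at most 3.42% in replicate 2.

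Chromosomes differed in peak density, and in part alike in both replicates. Chromosome 5 ranked first in both, with 5.17 and 0.221 peaks per Mb, beside 3.54 and 0.125 over all chromosomes. It held 20 of the 150 genes, the most of the 23 chromosomes, beside 38 of the 310 replicate 2 genes and 3074 of the 62062 annotated genes. For its 38 replicate 2 genes, the 20 length classes gave 13.1 genes in both replicates. Chromosome X ranked last in both, with 74 peaks (0.478 per Mb) and 2 peaks (0.0129 per Mb). It held none of the 150 genes, where length gave 0.621 for its 1 replicate 2 gene. Across the 23 chromosomes, which share libraries, the densities of both replicates had a Pearson correlation of 0.763 and a Spearman correlation of 0.629, given as a description.

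The first 50 Mb of chromosome 5, a region picked after these values were seen, held 423 replicate 1 peaks (8.49 per Mb) and 26 replicate 2 peaks (0.522 per Mb). The rest of the chromosome had 3.92 and 0.107 per Mb. Of the 150 genes, 14 began in that region, which had 26 replicate 2 genes, beside 150 of 310 over all chromosomes. Among the 14 were MARCHF6, CDH18, CDH12, CDH9, GOLPH3, WDR70, GHR and LINC02160. GHR, the growth hormone receptor, had the highest replicate 2 score of these, 87.25, with a top replicate 1 score of 60.98. The peaks called against Input were also denser there, with 8.91 per Mb against 3.90 in replicate 1 and 19.7 against 6.56 in replicate 2. On chromosome X they were at 0.426 and 0.820 per Mb, beside 3.2 and 5.76 over all chromosomes. The number of copies of these regions in HCT116 was not measured here, and its part in the densities was not tested.

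**Figure D5:**
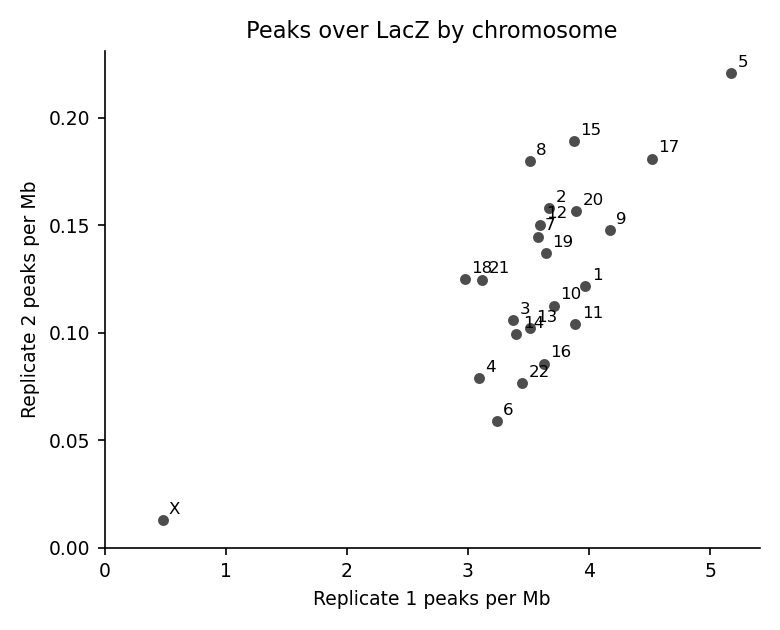
Peaks over LacZ per Mb of ungapped sequence in replicate 1 (x axis) and replicate 2 (y axis), 1 point for each of the 23 chromosomes, with both axes from 0. Chromosome 5 is highest in both replicates (5.17 and 0.221) and chromosome X lowest in both (0.478 and 0.0129).

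The replicates differed in how many peaks were also called against the other control. Of the replicate 1 peaks, 4696 (45.6%) were also called against Input with the same start and end, and of the replicate 2 peaks, 344 (94.8%). In replicate 1 this share went from 36.6% of peaks scoring under 60 to 79.7% of those at 100 or more. Of the 150 genes, 116 had a peak against Input in both replicates and 4 in neither. The share among other genes of like length was not counted, and these genes are long, with a median span of 265 kb. The lists against Input also share the CRLM1 libraries, so the 116 are no separate observation. With peaks called against both controls, 103 genes had a peak in both replicates, and the ratio to the number expected from length was 1.63.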

How the data were processed

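ChIRP-seq of HCT116 cells gave 6 libraries, with 2 replicates for each of the CRLM1 probes, the LacZ probes and the chromatin Input. Per the submitters' processing notes, reads were processed with cutadapt and Bowtie2 on GRCh38, and the methods name MACS2 for peaks called against Input. The caller's version and threshold for the lists called against LacZ are not given in the sources used here. The authors deposited 4 peak lists, CRLM1 against LacZ and against Input for each replicate, and each deposited score is the peak caller's value for 1 peak, none under 50, on a scale not given in the sources used here. The lists hold no read counts, so depth is unknown.

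Peaks on chromosomes 1 to 22 and X were taken and matched to GENCODE release 44 by gene span, the gene body and 5 kb upstream, with 1 bp of overlap. Expected gene numbers came from 20 classes of span, from one even peak density over 2911.22 Mb of ungapped sequence, or from an even density per chromosome. Numbers at equal list size came from an exact formula. Words of 31 letters were counted over the main chromosomes, and the genome value came from 2911210 words, 1 every 1000 bp. Tandem repeats had units of 1 to 6 bp and at least 24 bp. Python 3.11.15, numpy 2.4.6, pandas 2.3.3, scipy 1.17.1, bedtools 2.31.1 and matplotlib 3.10.9 were used, and the gene counting was tested on simulated data.

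Named genes were LINC01767, genes with overlapping peaks of both replicates, and, among genes in both, the 15 with the highest lower top score, the 10 shortest, the 10 longest and the 5 with most replicate 1 peaks. The 8 protein-coding genes with the highest score and the 5 with most peaks (ties broken by list order) in each replicate alone, 8 genes the study names, and family members in both replicates were also named. Families came from gene symbols. Some results that this rule covers are not reported here. Members, lists and families were chosen with earlier results of these data known. Alternatives changed the score minimum, the upstream window, the gene set, the overlap, the list size, the control and the length adjustment.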

Additional observations from a re-analysis of the deposited data

Results flagged for a closer look

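Beyond the chromosomes described, the replicate 1 list called against LacZ held 21 peaks, which no comparison used. Of these, 2 were on chromosome Y, 2 on the mitochondrial genome and 17 on other contigs. The replicate 2 list held 2 such peaks, both on other contigs. The lists were called against the LacZ control, so each of these peaks was above it.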

How the results depend on the processing

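Of 76 alternatives over 12 results, 43 were labelled as keeping the value and 33 as moving it. For counts, keeping meant within 1.5 times the count. For the ratio, the median span and the shares, it meant within a 95% interval computed from the counts. That interval takes genes or peaks as independent, which they are not, so it is a yardstick and no error. Only the ratio could be labelled reversed, by crossing 1, and it never did. Some moves, such as fewer peaks above the median score, were fixed in advance. With peaks at or above the median score of their list, there were 5154 and 185 peaks in replicates 1 and 2, 3695 and 163 genes, and 54 genes in both, with a ratio to the number expected from length of 1.57 and a protein-coding share of 59.3%. Without the 5 kb upstream, 65.3% and 66.9% of peaks were in gene spans, and with 1 kb, 66.4% and 67.5%. With protein-coding genes only, 4048 and 205 genes had a peak, 52.5% and 54.8% of peaks were in spans, and 2 genes had overlapping peaks. With 50% reciprocal overlap, 5 genes did. With replicate 1 reduced to its 363 highest peaks, 314 genes had a peak and 67.5% of those peaks were in spans. Then 16 genes were in both, 3 of them at the CRLM1 locus that the probes target. The ratio was 2.64, the median span 415 kb and the protein-coding share 62.5%, and 3 replicate 2 peaks and 4 genes had an overlap. Drawing 363 replicate 1 peaks gave 307.9 genes. With peaks also called against Input, replicate 1 had 4696 peaks, 2832 genes and 65.2% of peaks in spans, the ratio was 1.63, and 5 genes had overlapping peaks. With an even density per chromosome the ratio was 1.16, the lowest of all alternatives. That alternative and those with one even density and with 200 length classes were chosen after seeing the data. Leaving out 1 replicate gives the genes of the other list, 310 to 6465, with a median span of 78.2 to 112 kb and a protein-coding share of 62.6 to 66.1%. Apart from fewer peaks or genes entering, the cause was not tested. No paired analysis was possible because each replicate has 1 peak list against LacZ, with no values per library to fit.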
